A study of Mus musculus with 61 samples.

Results

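The genes described here encode the machinery with which pancreatic duct cells secrete a bicarbonate-rich fluid, and they were followed across mouse ductal organoids reprogrammed towards endocrine fates. The set held 10 genes of the 46078 in the count table, chosen by name as known chloride, bicarbonate and water transporters of the duct, and 8 of the 10 passed the filter that left 24004 genes for testing. Organoids from C57BL/6 mice had been infected with lentiviral vectors that switch on transcription factors when doxycycline is given, each marked by its own fluorescent protein. GFP marked Ngn3, LSSOrange marked Pdx1 and tdTomato marked MafA, and the cells were sorted in pools of 50 after 8 days of induction. Cultures carried either wild-type Ngn3 (WT) or a phospho-mutant whose Cdk target serines were changed to alanine (6SA). Within each kind of culture, cells were sorted with Pdx1, MafA, Pdx1 and MafA, Ngn3 and Pdx1, Ngn3 and MafA, or all 3 factors, which gave 12 conditions.

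All groups therefore shared the organoid culture, the viral infection and doxycycline, and cells described below as without Ngn3 were sorted from infected cultures and carried Pdx1, MafA or both. Uninfected cells and cells with Ngn3 alone were not analysed here, so Ngn3 was always compared on top of another factor. A sort by colour shows that a vector was active, not how much of each factor each of the pooled cells made. Replicates 1 and 2 were at passage 2 and replicate 3 was at passage 5, the labels do not say which replicates came from separate animals, and p-values measure the spread between these samples. After 3 libraries with too few counts were left out and repeat pools of 1 sorted sample were added up, 32 samples remained, 17 with Ngn3 and 15 without, in groups of 2 or 3 per condition.

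Pancreatic ducts add bicarbonate and water to the enzymes made by acinar cells. Carbonic anhydrase II (Car2) makes bicarbonate from carbon dioxide inside the cell, and the sodium-bicarbonate cotransporter Slc4a4 brings more in across the basolateral membrane. At the luminal membrane, chloride leaves through the cAMP-gated channel Cftr and the calcium-gated channel Ano1, the exchangers Slc26a3 and Slc26a6 trade chloride for bicarbonate, and the sodium-proton exchanger Slc9a3 can take bicarbonate back up. Water follows through the aquaporins Aqp1 and Aqp5, and secretin, acting through its receptor Sctr, raises cAMP to start the flow.

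The promoters are shown for the 4 members with a RefSeq entry that were called lower when Ngn3 was added to Pdx1 and MafA, so that the sites discussed can be read directly. Each runs from 250 bases before to 50 after the annotated start (RefSeq, GRCm38.p6), 5′ to 3′ on the gene's strand, in lower case, with capitals marking matches to 3 motifs searched on both strands. CANNTG is the E-box that basic helix-loop-helix factors such as Ngn3 bind, TAATTA is a homeodomain core bound by factors such as Pdx1, and TGCTGA is the MAF half-site. RefSeq lists 2 starts for Slc4a4. Car2 and Sctr were not found in the table.
Slc4a4, chr5:88887010-88887309, plus strand: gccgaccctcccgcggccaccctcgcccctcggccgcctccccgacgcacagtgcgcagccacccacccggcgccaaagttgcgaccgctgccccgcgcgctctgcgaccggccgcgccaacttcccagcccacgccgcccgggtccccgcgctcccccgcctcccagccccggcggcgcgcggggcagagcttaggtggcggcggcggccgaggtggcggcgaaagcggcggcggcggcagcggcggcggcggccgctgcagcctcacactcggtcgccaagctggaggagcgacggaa
Slc4a4, chr5:89027716-89028015, plus strand: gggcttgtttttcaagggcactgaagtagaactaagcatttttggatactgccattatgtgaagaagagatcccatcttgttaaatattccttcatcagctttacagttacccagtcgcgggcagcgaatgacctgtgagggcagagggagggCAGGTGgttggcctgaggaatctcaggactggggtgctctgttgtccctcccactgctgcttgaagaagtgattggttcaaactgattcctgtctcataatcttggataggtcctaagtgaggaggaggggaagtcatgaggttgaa
Cftr, chr6:18170437-18170736, plus strand: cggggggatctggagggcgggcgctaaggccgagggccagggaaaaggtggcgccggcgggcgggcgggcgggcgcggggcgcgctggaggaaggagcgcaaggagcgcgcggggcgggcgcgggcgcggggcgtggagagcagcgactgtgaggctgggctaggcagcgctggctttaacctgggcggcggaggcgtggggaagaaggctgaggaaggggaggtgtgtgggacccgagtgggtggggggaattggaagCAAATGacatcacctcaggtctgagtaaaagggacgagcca
Ano1, chr7:144738524-144738823, minus strand: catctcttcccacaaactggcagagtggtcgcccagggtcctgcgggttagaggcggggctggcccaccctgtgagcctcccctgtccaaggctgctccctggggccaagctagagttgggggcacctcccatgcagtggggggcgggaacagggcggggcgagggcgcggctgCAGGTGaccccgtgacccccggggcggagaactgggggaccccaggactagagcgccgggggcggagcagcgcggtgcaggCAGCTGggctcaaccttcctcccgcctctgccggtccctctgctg
Aqp5, chr15:99590778-99591077, plus strand: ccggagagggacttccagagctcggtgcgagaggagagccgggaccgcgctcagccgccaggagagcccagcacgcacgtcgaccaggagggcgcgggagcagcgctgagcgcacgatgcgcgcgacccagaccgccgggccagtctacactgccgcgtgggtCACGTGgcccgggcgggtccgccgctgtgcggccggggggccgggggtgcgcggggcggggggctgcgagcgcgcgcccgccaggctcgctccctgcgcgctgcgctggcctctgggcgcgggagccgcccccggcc

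CANNTG was found in 7 of the 9 windows of the 8 members matched, and in 72.3% of all 32851 promoters of the same length. TAATTA was in 1 of the 9 and in 5.29% of all, and TGCTGA in 2 of the 9 and in 19.5% of all. Of the sequences printed, the first Slc4a4 window held none of the 3 motifs, the Ano1 window held CANNTG at 2 places, and the other 3 held it once. A match is a description of letters, gene-level counts do not tell the 2 Slc4a4 starts apart, and no binding was measured here.

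Total gene counts per sample ran from 2579583 to 19461008, with a median of 8137720 in samples with Ngn3 and 8862096 in those without. Values are gene counts per 1000000 (CPM) after TMM scaling of library sizes, and a sample's limit for a gene with no read, 3 counts, stood between 0.136 and 1.01 CPM and covers counting error only. The label check held for Ngn3: Neurog3 reached 7.87 to 329 CPM in the 17 samples with Ngn3 and 0 to 0.788 CPM in the 15 without, with no overlap. Pdx1 was also read in samples sorted without its vector, at 3.21 to 30.6 CPM in the cells with Ngn3 and MafA. Mafa was weakly read even in samples sorted for it, at 0.107 to 3.16 CPM in cells with MafA alone. It ran from 0 to 4.21 CPM in cells with Pdx1 and MafA and from 3.46 to 12.7 CPM in cells with all 3 factors.

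Without Ngn3, the carbonic anhydrase led the set, and the order of Ano1 and Slc4a4 depended on the high Ano1 values of replicate 1 given below. Per kilobase of exon, the only scale on which levels of different genes are set side by side here, Car2 averaged 222 CPM per kb, Ano1 41.0, Slc4a4 31.3 and Aqp5 11.2. Cftr stood at 1.7 CPM per kb, Slc26a6 at 1.01 and Aqp1 at 0.866, while Slc26a3, Slc9a3 and Sctr were each at most 0.00373. With Ngn3 the means were 32.5 CPM per kb for Car2, 18.9 for Ano1, 8.36 for Slc4a4, 1.66 for Aqp5 and 0.376 for Cftr, and Slc26a6 stood at 1.2.

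When Ngn3 was added, over all combinations of the other factors, 6 of the 8 members tested were lower and none higher. Over all 24004 genes, 10.5% were called lower and 11.1% higher in the same comparison, by edgeR's quasi-likelihood test at an adjusted p under 0.05. The median log2 fold change was -2.49 over the 8 members tested, -2.82 over 7 without the barely read Slc9a3, and 0.07 over all genes. Because the counts come from pools of cells, fewer cells with a transcript and less transcript per cell cannot be told apart.

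**Figure D1:**
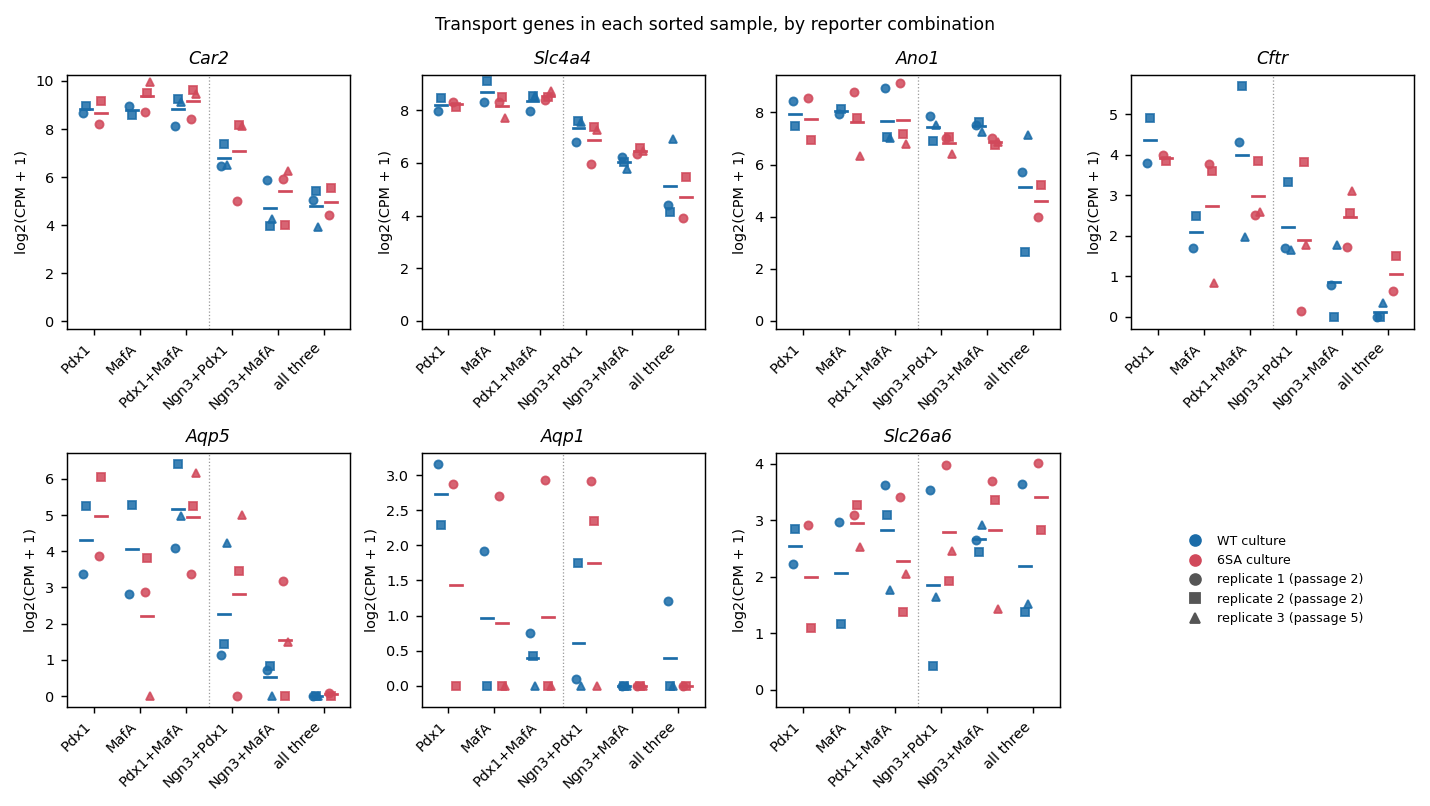
Level of each of 7 transport genes in every sample, as log2(CPM + 1), by reporter combination; colour gives the kind of culture, the symbol the replicate, and a bar the mean, on this scale, of the 2 or 3 samples of a condition. To the right of the dotted line, where cells carry Ngn3, Slc4a4 lies below every sample on the left. Slc26a6 overlaps between the 2 sides, with a wider range on the right.

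Car2, the cytosolic enzyme that supplies bicarbonate, lies on chromosome 3 (GRCm38, 14886273 to 14900770, plus strand, ENSMUSG00000027562). In samples without Ngn3 its lowest, median and highest levels were 278, 500 and 1000 CPM. With Ngn3 they were 14.4, 45.8 and 287 CPM, so that 15 of the 17 samples lay below every sample without Ngn3. The 2 samples above that line were 6SA samples with Ngn3 and Pdx1, at 287 and 281 CPM, while the third sample of that condition was at 31.4 CPM. In all 14 pairs of same-numbered samples that differed only in Ngn3, Car2 was lower with it. The fitted log2 fold change was -3.17 (SE 0.31), with an edgeR adjusted p of 1.29e-08.

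Slc4a4, the basolateral cotransporter, was the single member whose samples with and without Ngn3 did not overlap. It lies on chromosome 5 (88886818 to 89239653, plus strand, ENSMUSG00000060961). Without Ngn3 its lowest, median and highest levels were 206, 336 and 549 CPM, and with Ngn3 they were 14.2, 81.1 and 194 CPM, so all 17 samples with Ngn3 were below all 15 without. The fitted log2 fold change was -2.17 (SE 0.24, edgeR adjusted p = 8.65e-08). Across combinations the mean was 145 CPM (SD 51, n = 6) with Ngn3 and Pdx1, 76 CPM (SD 14.9, n = 6) with Ngn3 and MafA, and 42.5 CPM (SD 43.8, n = 5) with all 3 factors. The SD of the last group came from 1 sample, WT replicate 3, at 118 CPM, beside 20.3, 16.4, 14.2 and 43.6 CPM in the other 4. That sample also had the lowest Neurog3 of the 5, at 14.6 CPM beside 163 to 329 CPM, and the lowest Pdx1, at 30.8 CPM beside 134 to 191 CPM. The part of these in its Slc4a4 level was not tested.

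The apical chloride channels fell less evenly. Ano1, the calcium-gated channel, lies on the minus strand of chromosome 7 (144588549 to 144751974, ENSMUSG00000031075). Its lowest, median and highest levels were 78.6, 218 and 560 CPM without Ngn3 and 5.27, 129 and 235 CPM with it, and the groups overlapped in most of their range, with 4 of 17 samples below all of those without Ngn3. Its fitted log2 fold change was -1.44 (SE 0.33, edgeR adjusted p = 0.00153), and without replicate 1 it was -0.68 with an adjusted p of 0.127, so this call rested on replicate 1. In the samples without Ngn3, replicate 1 of 4 conditions held the highest values, at 560, 490, 436 and 376 CPM. The annotation places 1 other gene over the Ano1 locus, on the opposite strand.

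Cftr, the channel mutated in cystic fibrosis, lies on chromosome 6 (18170687 to 18322768, plus strand, ENSMUSG00000041301). Without Ngn3 its lowest, median and highest levels were 0.791, 12.6 and 51.1 CPM. With Ngn3 they were 0, 2.13 and 13.1 CPM, and 3 of the 17 samples had no Cftr count. It was lower with Ngn3 in 13 of the 14 same-numbered pairs. The exception was the 6SA cells with MafA at passage 5, at 0.791 CPM (3 counts, the sample's limit) without and 7.64 CPM with Ngn3. The sample without Ngn3 in that pair had the lowest TMM factor, 0.697, and the highest spike-in share, 0.396%. It also held the highest Car2 and the lowest Slc4a4 and Ano1 of the samples without Ngn3. The fitted log2 fold change was -2.82 (SE 0.57, edgeR adjusted p = 0.000549). The annotation places 2 other genes over the Cftr locus, 1 of them on the opposite strand, and the strand setting of the counting is not given in the sources used here.

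Of the water channels, Aqp5 showed the larger levels. Aqp5 lies on chromosome 15 (99590782 to 99594829, plus strand, ENSMUSG00000044217). Its lowest, median and highest levels were 0, 16.1 and 83.3 CPM without Ngn3 and 0, 0.645 and 31.2 CPM with Ngn3, where 7 of the 17 samples had no count, against 1 of the 15 without Ngn3. The fitted log2 fold change was -5.16 (SE 0.85, edgeR adjusted p = 6.02e-05), and it was -3.89 without replicate 2, with an adjusted p of 0.0501. Because several conditions with Ngn3 were near 0 the fitted fold depends on how the model treats low counts, and the ratio of the 2 group means in CPM was 6.74.

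Aqp1, on chromosome 6 (55336432 to 55348555, plus strand, ENSMUSG00000004655), was read in few samples. It had no count in 12 of the 17 samples with Ngn3 and in 7 of the 15 without, and its highest levels were 6.53 and 7.93 CPM. Without Ngn3, all 6 replicate 1 samples and 2 of the 6 replicate 2 samples had reads. All 8 samples at passage 5, 5 with Ngn3 and 3 without, were at 0. Its log2 fold change of -4.01 passed the test (edgeR adjusted p = 0.0152), but without replicate 1 it was 0.3, with the opposite sign and an adjusted p of 1.0. Without replicate 2 the edgeR adjusted p was 0.0513. It was 1.0 without any single one of replicate 1 of the 6SA cells with MafA, with Pdx1 and MafA or with Pdx1, or of the WT cells with MafA, at log2 fold changes of -2.8, -2.75, -2.64 and -2.87. The Aqp1 call thus rested on single samples.

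Of the exchangers, only Slc26a6 was read well enough to compare, and it was not called. Slc26a6, on chromosome 9 (108853283 to 108913049, plus strand, ENSMUSG00000023259), ran from 1.13 to 11.3 CPM without Ngn3, with a median of 6.15, and from 0.337 to 15.1 CPM with it, with a median of 5.24. It was higher with Ngn3 in 9 of 14 same-numbered pairs and lower in 5. The fitted log2 fold change was 0.33 (SE 0.44, edgeR adjusted p = 0.804).

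The other 3 members were barely read at all. Slc26a3 had no count in 28 of the 32 samples and at most 5 counts in any, Slc9a3 had none in 27 and at most 12, and Sctr had none in 30 and at most 1. Slc26a3 and Sctr did not pass the gene filter, and Slc9a3 passed, but its fold change over all combinations had no usable error, since whole conditions were at 0. At this depth, levels below the limits given above were not detectable, which is not evidence that the transcripts were absent.

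The size of the Ngn3 difference was next compared between partner factors. Neurog3 itself differed between these cells, at a median of 38.5 CPM (7.87 to 226) with Ngn3 and Pdx1. It was 58.1 CPM (24.9 to 212) with Ngn3 and MafA, and 167 CPM (14.6 to 329) with all 3 factors. The part of these levels in the differences below was not tested. When Ngn3 was added to Pdx1, none of the 8 members passed the test by edgeR or by DESeq2, beside 0.171% of all genes called lower by edgeR. By edgeR, 2 members and 2899 of the 24004 genes had an unadjusted p under 0.05. With a replicate block in the model, 1 member passed (1011 genes called, against 358 without the block). With the block within each kind of culture, 2 members passed (1051 genes called). Car2 ran from 31.4 to 287 CPM (median 128, n = 6) with Ngn3 and Pdx1 and stood at 404, 500, 295 and 574 CPM with Pdx1. Its log2 fold change was -1.56 (SE 0.50, edgeR adjusted p = 0.136) although the 2 groups did not overlap. For Slc4a4 the groups did not overlap either, at 61.1 to 194 CPM against 252, 350, 321 and 281 CPM, and the log2 fold change was -1.07 (SE 0.40, edgeR adjusted p = 0.24). A p that misses the threshold does not show that these groups were alike.

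When Ngn3 was added to MafA, 2 of the 8 members were called lower, beside 2.17% of all genes. Car2 fell from 498, 385, 415, 729 and 1000 CPM to a range of 14.6 to 76.1 CPM (median 38.3, n = 6), a log2 fold change of -3.84 (SE 0.52, edgeR adjusted p = 3.16e-05). Slc4a4 fell from 315, 549, 318, 365 and 206 CPM to a range of 54.3 to 95.1 CPM (median 77.6, n = 6), a log2 fold change of -2.25 (SE 0.39, edgeR adjusted p = 0.000637), which was -1.97 with an adjusted p of 0.116 without replicate 2. Ano1 (107 to 196 CPM with Ngn3, 78.6 to 436 CPM without) and Cftr (0 to 7.64 against 0.791 to 12.6 CPM) overlapped and did not pass. All 6 samples with Ngn3 and MafA had no Aqp1 count, at least 4.86-fold lower than the mean of 1.65 CPM with MafA when set at the limit of 3 counts per library, but 3 of the 5 samples with MafA were also at 0.

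When Ngn3 was added to Pdx1 and MafA, 5 of the 8 members were called lower, beside 8.4% of all genes. Car2 stood at 31.9, 42.4, 14.4, 20.3 and 45.8 CPM with all 3 factors, and at 278 to 789 CPM (median 583, n = 6) with Pdx1 and MafA, a log2 fold change of -4.11 (SE 0.58, edgeR adjusted p = 1.47e-05). Slc4a4, with the 5 values given above, compared with 252 to 430 CPM (median 366, n = 6), a log2 fold change of -3.2 (SE 0.44, edgeR adjusted p = 1.15e-05). These groups did not overlap for either gene.

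Cftr was barely read in the cells with all 3 factors. It was at 0, 0 and 0.266 CPM in the 3 WT samples and at 0.543 and 1.82 CPM in the 2 6SA samples, below every one of the 6 samples with Pdx1 and MafA, which ran from 2.89 to 51.1 CPM with a median of 9.15. The log2 fold change was -5.36 (SE 1.20, edgeR adjusted p = 0.00223), and -4.78 with an adjusted p of 0.121 without replicate 2. In the WT samples the pooled counts were 2 against 564, a ratio of 278 after scaling by the summed library sizes, with a 95% counting interval of 76.6 to 2300. That interval covers counting error only, not the spread between samples. In the 6SA samples they were 29 against 207, with means of 1.18 and 7.67 CPM, 6.48-fold lower with Ngn3, and over both kinds of culture the means differed 30.4-fold.

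Aqp5 was nearly unread in the same cells. A single count was read over the 5 samples with all 3 factors, against 9.42 to 83.3 CPM (median 33.9, n = 6) with Pdx1 and MafA. The pooled counts were 1856 against 1, and their ratio after scaling by the summed library sizes was 1690, with a 95% counting interval of 304 to 67000. This interval treats reads as independent and leaves out the spread between samples. In the 3 WT samples, all at 0, the level was at least 120-fold lower than the mean of 43.3 CPM, set at the limit of 3 counts per library. The fitted log2 fold change was -10.67 (SE 2.03, edgeR adjusted p = 0.000573). Without replicate 2 it was -10.03 and did not pass.

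Ano1 was at 50.9, 5.27, 138, 14.9 and 35.8 CPM with all 3 factors, and 4 of these were below every sample with Pdx1 and MafA, which ran from 110 to 560 CPM (median 140, n = 6). The exception was again WT replicate 3, the sample with little Neurog3. The log2 fold change was -2.69 (SE 0.61, edgeR adjusted p = 0.00248), and it was -1.31 with an adjusted p of 0.0807 without replicate 1. Slc26a6 ran from 1.61 to 15.1 CPM against 1.59 to 11.3 CPM and did not pass (edgeR adjusted p = 0.871). Whether the difference made by Ngn3 itself differed between the 3 combinations was not tested.

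**Figure D2:**
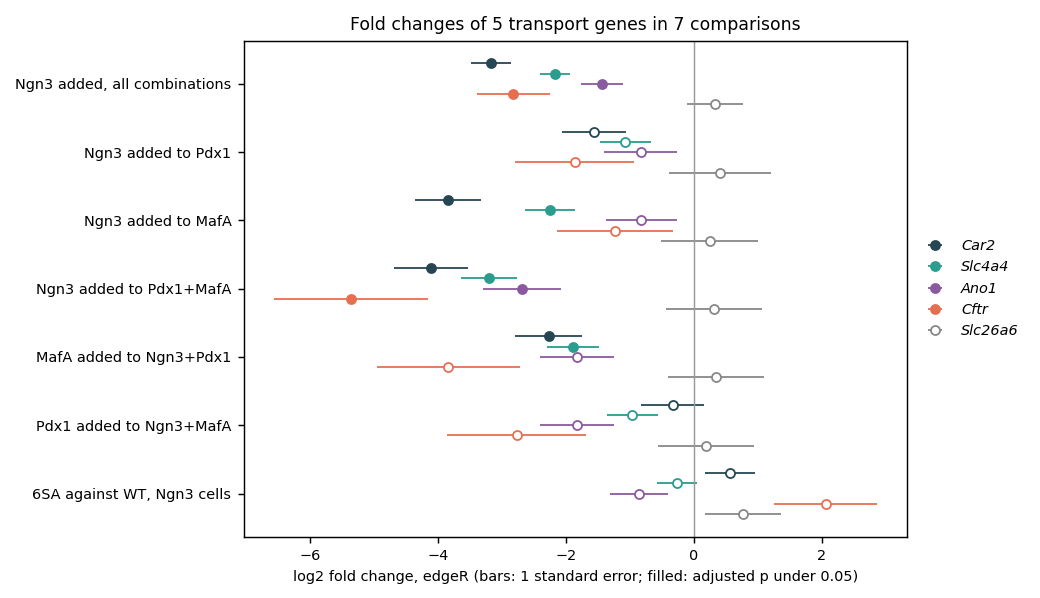
Fitted log2 fold change of 5 members in 7 comparisons, with 1 standard error; filled points have an edgeR adjusted p under 0.05. Points of Car2, Slc4a4, Ano1 and Cftr lie left of 0 in the 6 comparisons that add a factor, with the lowest for Car2, Slc4a4, Ano1 and Cftr where Ngn3 was added to Pdx1 and MafA, and Slc26a6 lies between 0.19 and 0.77 in all 7.

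The third factor was compared within cells that had Ngn3 already. Factor levels differed here too, with the Neurog3 medians given above. Pdx1 had a median of 33.2 CPM with Ngn3 and Pdx1 and of 150 CPM with all 3 factors. Their part in these differences was not tested. When MafA was added to Ngn3 and Pdx1, 3 of the 8 members were called lower, beside 1.35% of all genes. Car2 went from 31.4 to 287 CPM (median 128, n = 6) to the 14.4 to 45.8 CPM given above, a log2 fold change of -2.27 (SE 0.52, edgeR adjusted p = 0.0181), and Slc4a4 from 61.1 to 194 CPM (median 158) to 14.2 to 118 CPM, a log2 fold change of -1.89 (SE 0.41, adjusted p = 0.0127). Aqp5 went from 0 to 31.2 CPM (median 5.84, n = 6) to the single count, with an edgeR adjusted p of 0.0172. The ratio of its pooled counts, scaled by library sizes, was 362. Its 95% counting interval of 64.6 to 14300 leaves out the spread between samples. The groups overlapped for all 3 genes, for Car2 and Aqp5 through 6SA replicate 1 with Ngn3 and Pdx1, at 31.4 and 0 CPM, and for Slc4a4 through WT replicate 3 with all 3 factors, at 118 CPM.

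These 3 calls changed with the samples used, as did the calls over all genes, of which there were 451 with all samples. The number of members called was 0 in a fit of only the conditions compared (180 genes called), without replicate 2 (16 genes) and without 6SA replicate 1 of the cells with all 3 factors (165 genes). It was 1 without 6SA replicate 2 of those cells (225 genes) and 5 without WT replicate 3 of those cells (1072 genes). Over all samples or replicates left out, the log2 fold change stayed between -2.62 and -2.03 for Car2, -2.64 and -1.6 for Slc4a4, and -9.58 and -6.87 for Aqp5. Cftr (log2 fold change -3.84, SE 1.12, edgeR adjusted p = 0.0757) and Ano1 (-1.83, SE 0.58, adjusted p = 0.109) did not pass with all samples.

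When Pdx1 was added to Ngn3 and MafA, none of the members passed by edgeR, beside 1.56% of all genes called lower. By edgeR, 4 members and 4488 of the 24004 genes had an unadjusted p under 0.05. DESeq2 called 2 members and 1935 genes. The log2 fold changes of these 4 were -1.83 for Ano1 (SE 0.58, edgeR adjusted p = 0.0812), -5.69 for Aqp5 (SE 1.92, adjusted p = 0.103), -2.77 for Cftr (SE 1.09, adjusted p = 0.162) and -0.96 for Slc4a4 (SE 0.40, adjusted p = 0.183). Car2, not among them, was at -0.33 (SE 0.49, edgeR adjusted p = 0.805). Without WT replicate 3 of the cells with all 3 factors, edgeR called 2 members, and all genes called went from 654 to 1619. Among cells without Ngn3, Pdx1 against MafA gave no called gene by edgeR (0.0% of 24004, 675 at an unadjusted p under 0.05, and 26 by DESeq2) and so no member. The Pdx1 levels of these 2 sorts overlapped and Mafa was weakly read, as given above, and the part of this was not tested. Cftr had the largest fitted difference among Car2, Slc4a4, Ano1, Cftr and Slc26a6 there, at 12.9 to 29.3 CPM with Pdx1 and 0.791 to 12.6 CPM with MafA, a log2 fold change of 1.71 (SE 1.00, edgeR adjusted p = 1.0).

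The phospho-mutant did not set the members apart from wild-type Ngn3 by the test. In the cells with Ngn3, no gene was called between 6SA and WT by edgeR (0.0%, 1421 at an unadjusted p under 0.05, and 26 by DESeq2). Cftr alone of the members had an unadjusted p under 0.05 there. It ran from 0 to 9.11 CPM (median 0.726, n = 9) with WT Ngn3 and from 0.0906 to 13.1 CPM (median 2.35, n = 8) with 6SA, a log2 fold change of 2.06 (SE 0.81, edgeR adjusted p = 0.78). All 3 samples with no Cftr count were WT. Car2 (log2 fold change 0.57, SE 0.39), Slc4a4 (-0.26, SE 0.31) and Ano1 (-0.86, SE 0.45) had edgeR adjusted p-values of 0.928, 1.0 and 0.865.

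In the cells without Ngn3 from the same 2 kinds of culture, again no gene was called by edgeR (0.0%, 591 at an unadjusted p under 0.05, and 8 by DESeq2), and log2 fold changes of Car2, Slc4a4, Ano1 and Cftr were 0.32 (SE 0.42), -0.12 (SE 0.33), -0.02 (SE 0.47) and -0.32 (SE 0.77). The test of whether Ngn3 changed genes differently in the 2 kinds of culture called none either (0.0%, 647 at an unadjusted p under 0.05, and 5 by DESeq2). For Cftr this interaction was 2.37 (SE 1.11, edgeR adjusted p = 1.0), again with an unadjusted value under 0.05. A p that misses the threshold does not show that the 2 forms act alike.

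Ordered by their means over the 12 conditions, most neighbours overlapped. For Slc4a4 the 6 conditions without Ngn3 held the 6 highest places, and the step from 6SA cells with MafA (296 CPM, SD 81.8, n = 3) to WT cells with Ngn3 and Pdx1 (164 CPM, SD 47.5, n = 3) was a gap without overlap. For Car2 the gap lay between 6SA cells with Pdx1 (434 CPM, SD 197, n = 2) and 6SA cells with Ngn3 and Pdx1 (200 CPM, SD 146, n = 3). A second gap for Car2 lay between WT cells with Ngn3 and Pdx1 (114 CPM, SD 44.5, n = 3) and 6SA cells with Ngn3 and MafA (50.5 CPM, SD 31.7, n = 3). Neighbours of Aqp1, Aqp5 and Slc26a6 overlapped at all 11 steps, those of Ano1 at 10 of 11, and those of Cftr, Car2 and Slc4a4 at 9 of 11.

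Neurog3 itself varied within the cells sorted for Ngn3, and it was set beside the members. Across these 17 samples the Pearson correlation with Neurog3, on log2(CPM + 1), was -0.69 for Slc4a4, -0.48 for Cftr, -0.47 for Ano1, -0.47 for Aqp5, -0.32 for Car2, 0.14 for Aqp1 and 0.57 for Slc26a6. These are descriptions over samples that share combinations, cultures and depth. An example is the 6SA cells with Ngn3 and Pdx1, where replicate 1 had 226 CPM of Neurog3 with 31.4 CPM of Car2, 61.1 CPM of Slc4a4 and 0 CPM of Aqp5. Replicates 2 and 3 had 34.9 and 38.8 CPM of Neurog3, 287 and 281 CPM of Car2, 165 and 151 CPM of Slc4a4, and 10 and 31.2 CPM of Aqp5.

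**Figure D3:**
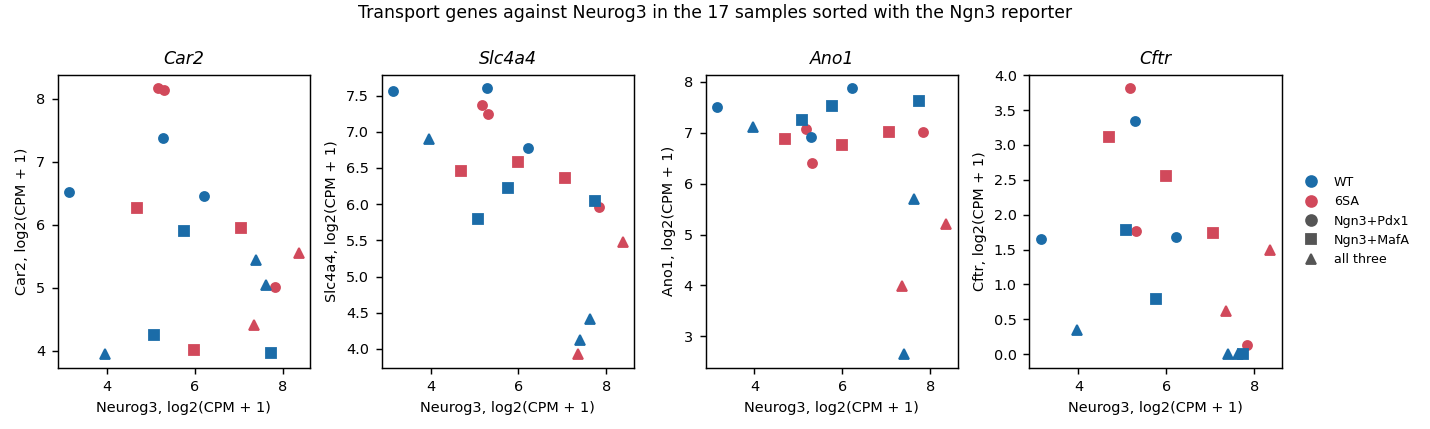
Levels of Car2, Slc4a4, Ano1 and Cftr against Neurog3, both as log2(CPM + 1), in the 17 samples sorted with Ngn3; colour gives the Ngn3 form and the symbol the combination. Slc4a4 has the strongest correlation of the 4 panels (Pearson r = -0.69), and 4 of the 5 samples with all 3 factors lie at the lower right of the Ano1 panel.

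The pools behind a sample did not always agree. Of the 17 sorted samples with repeat pools of 50 cells, Slc4a4 had over 10 counts in every pool of all 17, and the highest pool was a median of 1.4 times the lowest and at most 4.28 times. For Car2 the median was 1.56 and the largest 12.2, in WT replicate 1 with Ngn3 and Pdx1, at 13.7 and 167 CPM of the gene total in its 2 pools. Ano1 in WT replicate 1 with all 3 factors was at 3.08, 5.63 and 102 CPM of the gene total. Cftr had 2 such samples, and Aqp1 also 2, in which 1 pool had no count and another over 10, and Cftr had no count in 11 of the 58 pools.

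Passage was looked at because replicate 3 was older. In the 3 conditions without Ngn3 that have a passage 5 sample, Ano1 was at 78.6, 110 and 128 CPM there, below both passage 2 samples of its own condition in all 3, where the passage 2 samples ran from 134 to 560 CPM (median 327, n = 6). Cftr was below both in 2 of the 3, at 0.791 to 5.0 CPM against 4.71 to 51.1 CPM, and so was Slc26a6, at 2.41 to 4.75 CPM against 1.59 to 11.3 CPM. In the 5 conditions with Ngn3 that have a passage 5 sample, Cftr was above both passage 2 samples in 3 and below both in 1, and Ano1 was below both in 2 and above both in 1. Slc4a4 without Ngn3 ran from 206 to 430 CPM at passage 5 and from 252 to 371 CPM at passage 2. With Ngn3 it ran from 54.3 to 189 CPM at passage 5 and from 16.4 to 194 CPM at passage 2. Within passage 2 alone, the Ngn3 comparison over all combinations gave the same 6 lower calls beside 10.4% of all genes called lower, with log2 fold changes of -3.04 for Car2, -2.42 for Slc4a4, -1.78 for Ano1 and -3.69 for Cftr. Passage 5 alone leaves 1 sample per condition and was not fitted.

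Cell type markers were read beside the members. The 14 duct markers summed to 56100 to 141000 CPM without Ngn3 and to 5730 to 52200 CPM with Ngn3, and 9 of the 14 were called lower with none higher. The keratin Krt19 went from a median of 1090 to 121 CPM, while Sox9, a duct transcription factor, had medians of 158 and 116 CPM. The 10 endocrine markers summed to 1.32 to 10.8 CPM without Ngn3 and to 608 to 14600 CPM with it, and all 10 were called higher. Their part in the fall of the transport genes was not tested. Acinar markers summed to at most 17.1 CPM without Ngn3 and 49.7 CPM with it, with Pnlip and Ptf1a at 0 in both. The sum of 7 stromal markers reached 296 CPM in the highest sample with Ngn3, where its median was 0.164 CPM, and immune and endothelial markers stayed at or below 43.6 and 27.0 CPM.

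The genes whose levels over the 12 condition means most resembled each member were named by correlation, as a description over 12 points that share their libraries. For Slc4a4 they were Krt19, Serpinb6b and Kansl1l (each r = 0.988). For Car2 they were F3, the coagulation initiator tissue factor (r = 0.991), Kcnn4, a calcium-gated potassium channel (0.989), and Ugt2b34 (0.987). For Ano1 they were Bhlhe40, Wnt7b and Myof, at 0.992, 0.992 and 0.989. For Cftr they were Spc25, Cdc6 and Cep57 (0.963, 0.942 and 0.937), and for Aqp5 Mlf1, Mad2l1 and Stil (0.978, 0.971 and 0.97), of which Spc25, Cdc6, Mad2l1 and Stil act in DNA replication or mitosis. For Slc26a6 the likeness was weaker, with Ubxn6, Trappc3 and Bloc1s5 at 0.86, 0.855 and 0.848.

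A wider list of 79 further duct ion and fluid transport genes was read the same way. In the Ngn3 comparison over all combinations, 18 of the 69 tested were called lower and 11 higher, with a median log2 fold change of -0.31, beside 10.5% and 11.1% of all genes. The anion transporters called were Slc26a9, an apical chloride channel, from a mean of 72.6 CPM (SD 33.0, n = 15) to 8.11 CPM (SD 12, n = 17), and Slc26a4, from 0.624 CPM to no count in any sample with Ngn3. Slc12a2, the cotransporter that loads the cell with chloride, went from 448 to 162 CPM (log2 fold change -1.86, SE 0.25, edgeR adjusted p = 2.23e-06). Of the carbonic anhydrases, Car9, Car13 and Car8 were lower, with log2 fold changes of -2.76, -2.47 and -2.2, and none of the 6 tested was higher.

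Potassium channels recycle potassium during secretion, and of the 6 tested 5 were called lower and 1 higher. Kcne3, Kcnk5, Kcnn4, Kcnq1 and Kcnk1 had log2 fold changes of -4.15, -4.16, -3.3, -1.94 and -0.52. Kcnma1, the large-conductance potassium channel, went the other way, from a mean of 0.0411 CPM to 41.6 CPM (SD 45.6, n = 17). Atp4a, a gastric proton pump subunit, rose from 3.16 to 89.1 CPM (SD 160), a log2 fold change of 3.83 (SE 0.54, edgeR adjusted p = 5.01e-06), and the bicarbonate cotransporter Slc4a7 rose by 0.67 on the log2 scale (SE 0.20, adjusted p = 0.0139).

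Among water channels outside the members, Aqp9 was lower (3.05 to 1.4 CPM, edgeR adjusted p = 0.0294), while Aqp11 (7.47 to 34.9 CPM) and Aqp7 (0.0671 to 2.5 CPM) were higher. The purinergic receptors P2ry2 and P2ry1, the adenosine receptor Adora1 and the calcium channel Trpv4 were lower, with log2 fold changes of -2.28, -1.86, -2.61 and -2.54. Adora2a, Casr, Vipr2, Adcy9 and the protein kinase A subunit Prkaca were higher, and Casr, the calcium-sensing receptor, went from 0.0269 to 8.22 CPM. Slc9a3r1, the scaffold that anchors Cftr at the apical membrane, was lower (128 to 59.3 CPM, log2 fold change -1.12, SE 0.18, edgeR adjusted p = 2.7e-05), and Ahcyl1, a regulator of Cftr and Slc4a4, was higher (112 to 169 CPM, log2 fold change 0.58, SE 0.17, adjusted p = 0.0151).

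The same list in the narrower comparisons gave 2 higher and 2 lower of 69 tested when Ngn3 was added to Pdx1, beside 1.32% and 0.171% of all genes. It gave 6 higher and 9 lower when Ngn3 was added to MafA, beside 2.5% and 2.17%, and 8 higher and 13 lower when it was added to Pdx1 and MafA, beside 9.42% and 8.4%. Adding MafA to Ngn3 and Pdx1 gave 1 higher and 8 lower, beside 0.525% and 1.35%, and adding Pdx1 to Ngn3 and MafA gave 1 higher and 3 lower, beside 1.17% and 1.56%.

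**Figure D4:**
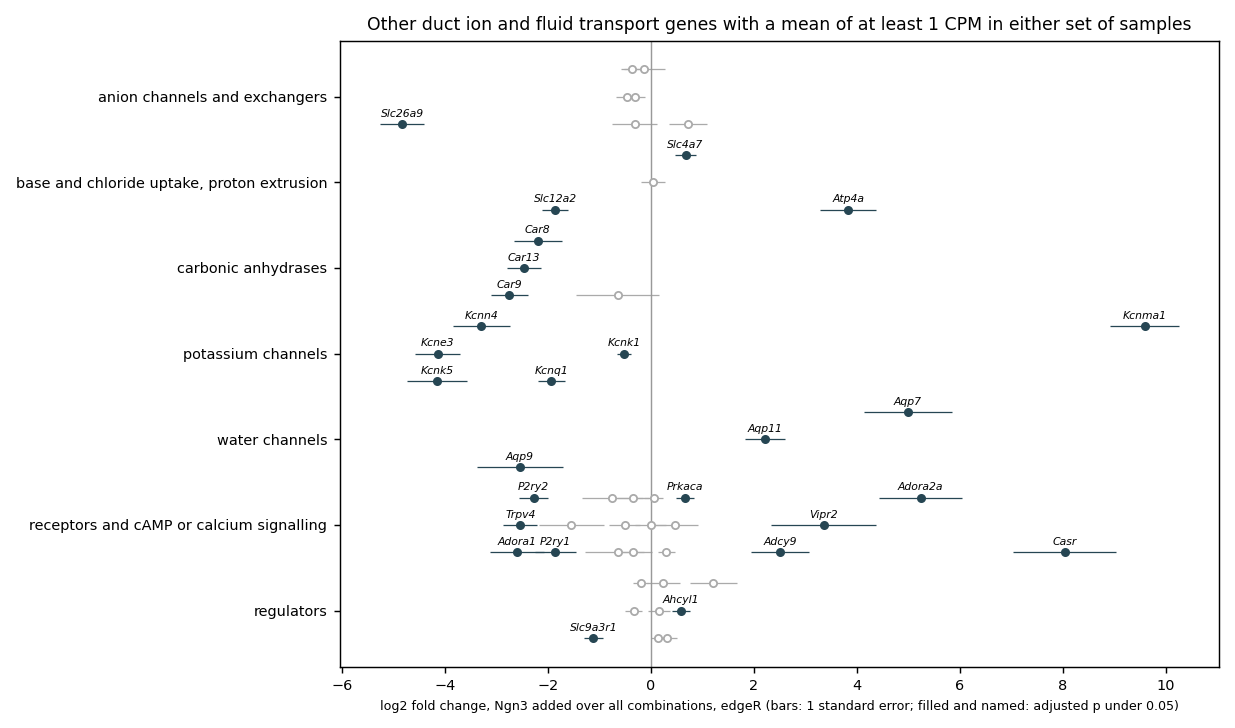
Log2 fold change of 52 genes of the wider list in the Ngn3 comparison over all combinations, with 1 standard error, by role; genes under a mean of 1 CPM in both sets of samples or with no estimable error are left out, and not every gene of the list is drawn. Filled and named points have an edgeR adjusted p under 0.05, and the carbonic anhydrases called all lie left of 0.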

How the data were processed

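Pools of 50 cells were sequenced with a Smart-seq2 protocol and Nextera XT libraries. The authors aligned the reads with GSNAP and deposited raw HTSeq 0.5.3p3 counts per Ensembl gene (mm10), without normalization. The strand setting is not given in the sources used here. HTSeq summary lines, 33.86 to 67.27% of a library's total, and the 92 spike-ins stayed out of library sizes and tests.

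From these counts, 58 of 61 libraries with over 1000000 gene counts were kept, technical repeats were added up, and the genes tested had reads in at least 5 libraries and varied between them (variance above 0.001 on log2(CPM + 1)). Library sizes were TMM-scaled. The tests were edgeR 4.0.16 quasi-likelihood tests (R 4.3.3, legacy setting) in 1 model over the 12 conditions, with Benjamini-Hochberg adjustment over 24004 genes and a threshold of 0.05. On simulated data of that size for the Ngn3 comparison over all combinations, 98% of genes changed 4-fold were recovered, and 10 of 208 calls were false. Only genes over 5 CPM were changed and no replicate effect was simulated, so this share does not carry over to weakly read members. The smallest groups held 2 samples, and 2 or 3 samples per condition limit the precision. DESeq2 1.42.0, other scalings, filters, sample sets, replicate blocks and leaving out samples were alternatives, and a fit by edgeR without its legacy setting was chosen later, with the data seen. Replicate numbers were not taken to pair the samples.

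The members and gene lists were chosen with earlier results of these data known. The text names the 10 members, the genes of the wider list past the threshold in the Ngn3 comparison over all combinations, the 3 genes most like each member with a mean of at least 5 CPM, and the vector genes. Promoters came from RefSeq (GRCm38.p6). A result of the wider list is not reported here.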

Additional observations from a re-analysis of the deposited data

How the results depend on the processing

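In the 6 comparisons with any gene called, 202 of 210 counts of members called with 1 sample or replicate left out stayed within 1.5 times the count with all samples, as did 52 of 65 under the other alternatives, edgeR without the legacy setting included, which was chosen after seeing the data. With replicates left out, members called ranged from 4 to 6 for Ngn3 over all combinations (all genes called 2085 to 5365, against 5168), 1 to 3 when it was added to MafA (138 to 1197, against 1121), 3 to 5 with Pdx1 and MafA (880 to 4767, against 4279), 0 to 5 when MafA was added to Ngn3 and Pdx1 (16 to 1179, against 451), and 0 to 2 when Pdx1 was added to Ngn3 and MafA (0 to 1619, against 654). The log2 fold change of Aqp1 over all combinations ranged from -5.26 to 0.3. When MafA was added to Ngn3 and Pdx1, DESeq2 called 5 members, no gene filter 6, and a fit of only the conditions compared 0, and all genes called went from 451 to 1344, 1454 and 180. When Pdx1 was added to Ngn3 and MafA, DESeq2 called 2 and no gene filter 3, with 654 genes becoming 1935 and 1930. With no gene filter, Ngn3 added to Pdx1 gave 1 member and added to MafA 4, with 358 genes becoming 1273 and 1121 becoming 2077. DESeq2 called 911 and 1928 genes there. No gene filter also gave 239 genes for 6SA against WT in Ngn3 cells, 6 in cells without Ngn3, 101 for the interaction and 113 for Pdx1 against MafA, which gave 123 in a fit of only the conditions compared. The causes were not tested.

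The labels do not say that replicate numbers pair samples, though replicate 3 alone was at passage 5. Of 14 matched pairs with and without Ngn3, 12 correlated above 0.1 (range -0.39 to 0.75), and 28 of 32 samples correlated best with their own number. Within the same kind of culture, 61 of 72 pairs with the same number correlated above 0.1, against 34 of 140 with different numbers. This is a hint from the data that the numbers form a block, which the main model leaves out. With the replicate block, Ngn3 added to Pdx1 gave 1 member (1011 genes), MafA added 5 (1188) and Pdx1 added 1 (2038), and Ngn3 added to MafA gave 2123 genes. With the block within each kind of culture these 3 comparisons gave 2, 5 and 3 members (1051, 1340 and 2137 genes). Plain library totals moved the median of all genes to 0.28 for Ngn3 over all combinations, against 0.07, and no member's call changed. Slc26a3, Slc9a3 and Sctr had at most 12 counts in any sample, so differences in them were not detectable here.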
